A study of Mus musculus with 20 samples.

Results

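The 10 genes described here, Snap25, Stx1a, Vamp2, Syt1, Cplx1, Cplx2, Syn1, Syn2, Syp and Sv2a, encode proteins of presynaptic vesicle release. They were chosen by name from a list of presynaptic genes and not by a filter on measured values, though with earlier results of these data known. Each symbol matched 1 row of the counts table, which held 39056 ENSEMBL genes in all. The libraries held strand-specific mRNA from the left hippocampus of 20 female C57BL/6 mice (1 library each) that were 12 to 13 months old. Wild type (WT) or knockout (KO) for miR-34a was crossed with presence (Tg-SwDI) or absence (Non-Tg) of the transgene, which gave 4 groups of 5 mice, and each mouse is named by its group and the number in its label. Tg-SwDI mice carry human APP with the Swedish, Dutch and Iowa mutations under the neuronal Thy1 promoter. The KO mice lack miR-34a in the whole body from conception, so a change in any cell type or at any age can contribute to their values.

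Neurons release transmitter when synaptic vesicles fuse with the presynaptic membrane. The vesicle protein Vamp2 and the membrane proteins Stx1a and Snap25 zip into the SNARE complex that drives fusion, Syt1 is the calcium sensor that triggers it, and the complexins Cplx1 and Cplx2 hold the assembled complex until calcium arrives. The synapsins Syn1 and Syn2 tether vesicles in the reserve pool, while Syp and Sv2a are abundant membrane proteins of the vesicle itself and are widely used as markers of presynaptic terminals. MicroRNAs such as miR-34a pair through their seed, bases 2 to 8, with complementary letters in the 3'UTR of a transcript and lower its stability or translation.

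The mature mouse miR-34a-5p is shown because the letters that its seed pairs with were searched for in the 10 genes. Its gene lies at chr4:150068473-150068494 on the plus strand (GRCm38.p6, RefSeq), and the seed is in capitals.
miR-34a-5p: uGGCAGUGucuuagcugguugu

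The sense strand of the longest annotated 3'UTR of each gene (GENCODE M21, mm10) was searched for CACTGCC, which pairs with bases 2 to 8 (7mer-m8), for CACTGCCA (8mer) and for ACTGCCA not preceded by C (7mer-A1), and each match was counted once, under the longest of the 3. Of the 10 genes, 6 held at least 1 match and 4 held an 8mer, with 12 matches in all. Among the 14708 tested genes with an annotated 3'UTR, 23.6% held a match. The 3'UTRs of the 10 genes ran from 1033 to 4208 bases, against a median of 1200 over the tested genes, and a longer 3'UTR holds more matches by length alone. Syt1 held 4 matches in a 3'UTR of 2890 bases, Vamp2 held 3 in 1718 bases, Cplx2 held 2 in 4208 bases, and Syn2, Snap25 and Cplx1 held 1 each. Stx1a, Syn1, Syp and Sv2a held none of these letters in this window. The 4 matches in Syt1 and the 8mers in the other genes are given below with the match in capitals. They lie in the last exon of each transcript, on the strand of the gene, and the coordinates (mm10) are those of the capitals.
Syt1, 7mer-m8, chr10:108500347-108500353, minus strand: cttcatcatacCACTGCCctccaaatcta
Syt1, 7mer-A1, chr10:108498991-108498997, minus strand: attgtaacaatACTGCCAttccctcgtac
Syt1, 7mer-m8, chr10:108498971-108498977, minus strand: ccctcgtactgCACTGCCcaatgtgtgtg
Syt1, 8mer, chr10:108498091-108498098, minus strand: ttctcttgcaaCACTGCCAacgtgggattg
Vamp2, 8mer, chr11:69091946-69091953, plus strand: ggggtactagtCACTGCCAatatgtgttgg
Cplx2, 8mer, chr13:54380324-54380331, plus strand: ttcatgctcccCACTGCCAggaggaccact
Cplx2, 8mer, chr13:54380752-54380759, plus strand: tcctgggacccCACTGCCAggctaggcccg
Syn2, 8mer, chr6:115276287-115276294, plus strand: attacagctccCACTGCCActcgaaagcag

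Totals of 19549622 to 21066868 counts per mouse put every vesicle release gene far above the counting limit, the lowest value being 1470 reads, for Stx1a in 1 KO Tg-SwDI mouse. Values are CPM, counts scaled to library size, after TMM scaling, which sets libraries to a common level of most genes. Mir34a was not analysed here, so the KO label was not checked on its own transcript. The Thy1 level, a check of the transgene that its promoter drives, was 685 to 769 CPM in mice without the transgene. With it, Thy1 was 1905 to 2328 CPM in WT and 2454 to 3318 CPM in KO Tg-SwDI mice, without overlap. KO and WT Tg-SwDI mice thus differed in this check, and its part in their comparison was not tested. The 10 hippocampal field markers, among them Prox1 and Wfs1, were detected in every mouse, with a summed level of 1050 to 1274 CPM. KO Tg-SwDI replicate 8 stood apart from the other 19 mice, with 14.6% of its counts on mitochondrial genes against 6.94% to 8.76%, and values that rest on it are given with and without it. Ttr, the defining transcript of the choroid plexus, was at most 277 CPM in 9 mice and at least 1691 CPM in the other 11, and only the KO Non-Tg group held no mouse with the higher level.

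The 10 genes differed widely in level. Per kilobase of exonic length (union of exons, GENCODE M21), Cplx2 was highest in WT Non-Tg mice at 310.7 ± 3.85 CPM per kb (SD, n = 5), followed by Vamp2 at 305 ± 18.4 and Cplx1 at 285 ± 6.79. Their ranges over mice overlapped between neighbours in this order. Syp came next at 258 ± 14.2, and its range lay below that of Cplx1. Syn1 at 228 ± 22.2, Snap25 at 220.3 ± 27.8 and Syt1 at 216 ± 11.6 CPM per kb followed with overlapping ranges, Syn1 also overlapping Syp. Sv2a at 109 ± 4.4 and Syn2 at 98.9 ± 4.74 overlapped each other and lay below the rest, and Stx1a was lowest at 35.9 ± 4.05, below the range of Syn2. Cplx2, Vamp2, Cplx1 and Syp kept the ranks 1 to 4, and Sv2a, Syn2 and Stx1a the ranks 8 to 10, in all 4 groups, while Syn1, Snap25 and Syt1 exchanged ranks 5 to 7.

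Close relatives of these genes, chosen from the synaptic lists after their values were seen, give a reference for these levels. The values of the relatives rest on the same division by exonic length. Sv2b stood at 59.7 ± 3.99 CPM per kb in WT Non-Tg mice, below Sv2a. Vamp1 was at 14.9 ± 1.07, Syt2 at 6.16 ± 0.532, Cplx3 at 3.26 ± 0.552, Snap23 at 2.55 ± 0.140 and Syn3 at 0.680 ± 0.0722 CPM per kb. Snap47 and Syt7, more distant relatives, stood at 113 ± 3.09 and 50.2 ± 2.40 CPM per kb (SD, n = 5). How reads that match several genes were counted is not given in the sources used here, which leaves some uncertainty within such families.

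**Figure D1:**
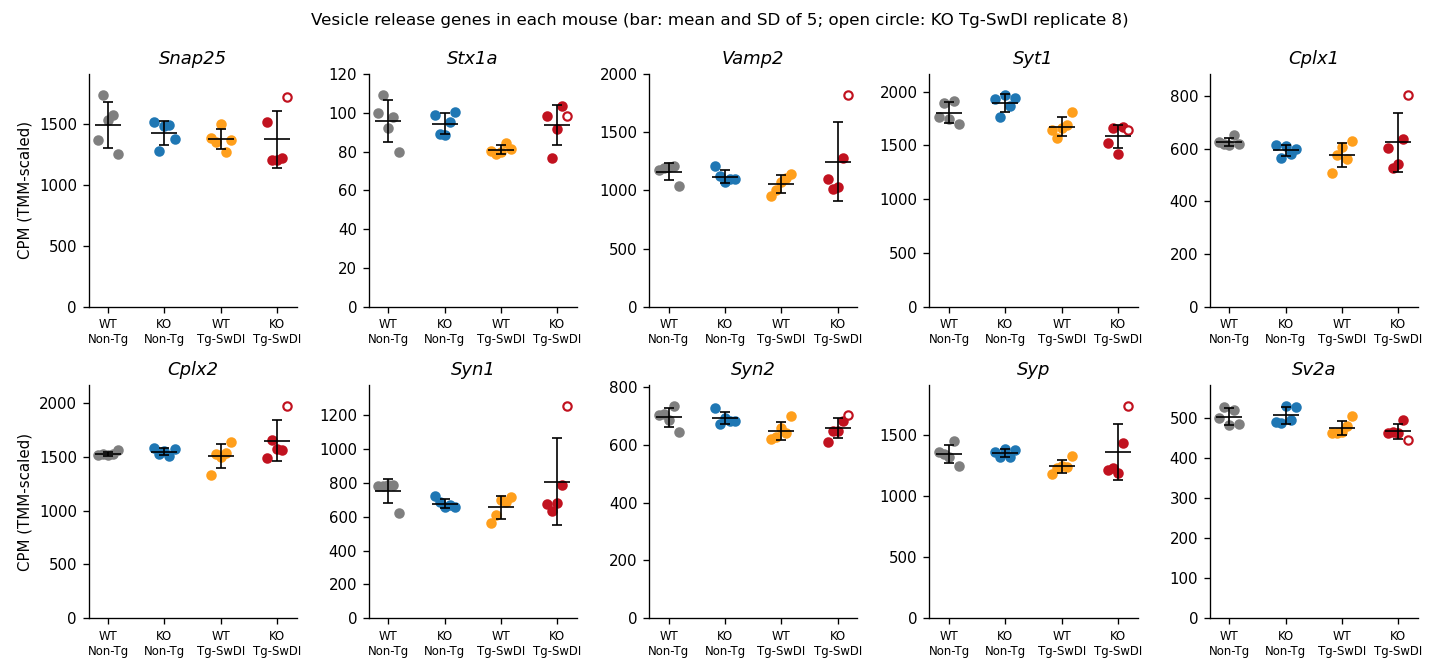
Level of each vesicle release gene (CPM, TMM-scaled, axis from 0) in each of the 20 mice by group, with the mean and SD of 5 mice as bars and KO Tg-SwDI replicate 8 as an open circle. Syt1 is the panel in which the KO Tg-SwDI mice (1425 to 1672 CPM) lie wholly below the KO Non-Tg mice (1763 to 1971 CPM), and replicate 8 lies above all other mice for Vamp2, Cplx1, Cplx2, Syn1 and Syp.

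The transgene was compared within each miR-34a genotype, which asks how the amyloid model changes these transcripts with and without miR-34a. In KO mice, Syt1 was lower with the transgene and was the only one of the 10 genes called. Its levels were 1928, 1763, 1971, 1868 and 1941 CPM in the KO Non-Tg mice. They were 1526, 1662, 1425, 1672 and 1647 CPM in the KO Tg-SwDI mice. The groups did not overlap, which 4.29% of all tested genes showed in this direction. The means were 1894 ± 82.4 and 1586 ± 108 CPM (SD, n = 5 each), a log2 fold change of -0.26 (SE 0.05, 95% CI -0.37 to -0.14), with an adjusted p of 0.00128 (quasi-likelihood test of edgeR, Benjamini-Hochberg over 16107 genes). In this comparison 8.31% of all tested genes were called lower and 12.5% higher, so 1 gene called of 10 is close to the background share.

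In WT mice the same comparison of Syt1 was smaller. Its levels were 1764, 1899, 1748, 1915 and 1696 CPM in WT Non-Tg mice. They were 1647, 1574, 1664, 1686 and 1810 CPM in WT Tg-SwDI mice, so that 1 Tg-SwDI mouse lay inside the Non-Tg range. The log2 fold change was -0.11 (95% CI -0.22 to 0.01, adjusted p = 0.365 in edgeR). The difference between the effects, the interaction of transgene and miR-34a, was -0.15 on the log2 scale (95% CI -0.31 to 0.01, unadjusted p = 0.0622, adjusted p = 0.312 in edgeR), so an unequal effect of the transgene on Syt1 in KO and WT mice was not shown.

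Other cell types moved with the same comparison, where rose and lower mean called at an FDR under 0.05. Between KO Non-Tg and KO Tg-SwDI mice all 12 microglia markers rose, their summed level going from 518 to 557 CPM up to 1580 to 2077 CPM, and 5 of 10 astrocyte markers rose. Of 15 choroid plexus markers 13 rose, with summed levels of 72.3 to 374 CPM against 143 to 4113 CPM. The 12 pan-neuronal markers summed to 6601 to 7050 CPM against 5963 to 7093 CPM, with 1 of them lower. Of the oligodendrocyte markers 5 of 10 rose (4970 to 5933 CPM against 6048 to 8016 CPM), of the striatum markers 3 of 8 (126 to 134 CPM against 118 to 194 CPM) and of the endothelium markers 1 of 8 (231 to 260 CPM against 245 to 296 CPM). Of the hippocampal field markers 2 of 10 were lower (1183 to 1227 CPM against 1050 to 1274 CPM), as was 1 of 7 interneuron markers (1261 to 1358 CPM against 1071 to 1471 CPM), and 0 of 5 thalamus markers were called. By sign alone, log2 fold changes were above 0 for all 10 astrocyte, 10 oligodendrocyte and 15 choroid plexus markers. They were below 0 for 9 of 12 pan-neuronal (median -0.08), 8 of 10 hippocampal field and 5 of 7 interneuron markers. Values above 0 were found for 7 of 8 endothelium, 7 of 8 striatum and 4 of 5 thalamus markers. Over all tested genes 8193 of 16107 lay below 0. No marker in these lists was at 0 in any mouse. In bulk tissue, fewer cells of a type and less RNA per cell cannot be told apart. The part of microglia, astrocytes, oligodendrocytes and dissected regions in the Syt1 result was not tested.

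Syt1 was also read by the Ttr level, a reading chosen after the values were seen and not tested. KO Tg-SwDI replicate 2, the only mouse of its group with low Ttr, had Syt1 at 1662 CPM, below all 5 KO Non-Tg mice (1763 to 1971 CPM), all of which had low Ttr. In WT mice with high Ttr, Syt1 lay between 1696 and 1764 CPM in 3 Non-Tg and between 1574 and 1686 CPM in 4 Tg-SwDI mice. In WT mice with low Ttr it was 1899 and 1915 CPM in 2 Non-Tg mice and 1810 CPM in 1 Tg-SwDI mouse. In 2 of these 3 comparisons the Tg-SwDI arm was 1 mouse. With the mean of the 15 choroid plexus markers as a covariate, the log2 fold change of Syt1 in KO mice went from -0.26 to -0.17 and the call was lost (adjusted p = 0.0525 in edgeR).

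**Figure D2:**
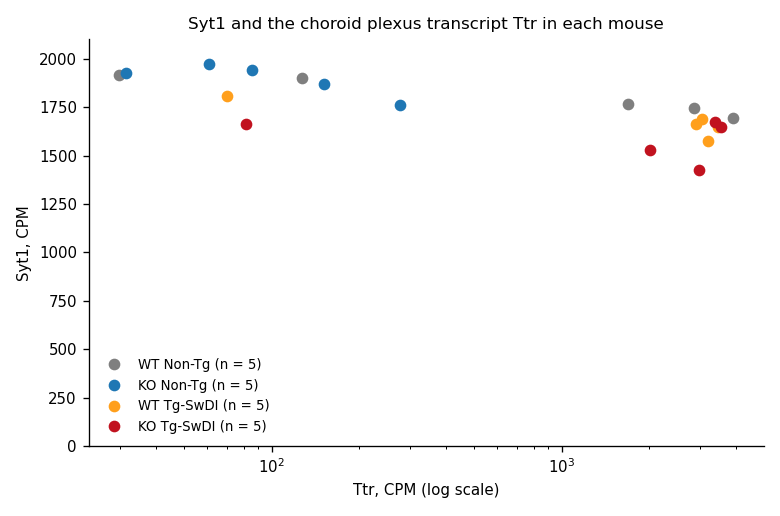
Syt1 (CPM, axis from 0) against Ttr (CPM, log axis) in each of the 20 mice, coloured by group with 5 mice each. The 9 mice with Ttr of at most 277 CPM are on the left, and among them Syt1 in the KO Tg-SwDI mouse (1662 CPM) lay below the 5 KO Non-Tg mice (1763 to 1971 CPM). The WT Tg-SwDI mouse (1810 CPM) lay below both WT Non-Tg mice (1899 and 1915 CPM) but above 1 KO Non-Tg mouse (1763 CPM).

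The remaining genes were not called in KO mice. Sv2a was nearest, at 506 ± 20.7 CPM in KO Non-Tg and 467 ± 18.1 CPM in KO Tg-SwDI mice (SD, n = 5 each). Its ranges of 488 to 530 and 446 to 496 CPM overlapped, and its log2 fold change was -0.12 (95% CI -0.21 to -0.03, adjusted p = 0.0622 in edgeR), or -0.12 with an adjusted p of 0.0158 in DESeq2. The values for Syn2 were -0.07, for Snap25 -0.06, for Stx1a -0.01 and for Syp 0.01. The 4 largest values above 0, Syn1 at 0.25, Vamp2 at 0.16, Cplx2 at 0.09 and Cplx1 at 0.07, became 0.04, -0.02, 0.02 and -0.04 in the same order with KO Tg-SwDI replicate 8 left out, and Syp became -0.09. The median over the 10 genes was 0.00, with 5 of them below 0, and that over all tested genes 0.00. Without replicate 8 the median over the 10 genes was -0.07, with 8 of them below 0.

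In WT mice none of the 10 genes was called, while all 10 log2 fold changes were below 0, against 8051 of 16107 tested genes. Their median was -0.11 and that over all tested genes 0.00, and 0.466% of all genes were called lower and 3.94% higher. The 10 genes share the same libraries, so their signs are not independent. Other neuronal markers were also often below 0 here: 9 of 12 pan-neuronal (median -0.06) and 5 of 7 interneuron markers, with 5 of 10 hippocampal field markers. All 15 choroid plexus markers lay above 0 (median 0.37), with none called. With the pan-neuronal score as a covariate all 10 values were nearer to 0. Snap25 then stood at 0.003 and Cplx2 at 0.01, and the other genes stayed below 0, from -0.18 for Stx1a to -0.03 for Vamp2. All 12 microglia and 5 of 10 astrocyte markers were called higher in WT mice too, and their part was not tested. Stx1a was nearest to a call. The WT Non-Tg mice stood at 99.9, 109, 92.3, 97.7 and 79.95 CPM, and the WT Tg-SwDI mice at 80.6, 78.7, 80.1, 84.6 and 81.3 CPM. The Tg-SwDI values were tightly grouped, and the Non-Tg group reached into their range only through replicate 7. The log2 fold change was -0.24 (SE 0.07, 95% CI -0.39 to -0.09) with an adjusted p of 0.0562 in edgeR, 0.0294 in DESeq2, and 0.00564 without WT Non-Tg replicate 7, where it was -0.30. Over 32 alternative settings in edgeR or DESeq2 the adjusted p ran from 0.00564 to 0.214, with a call in 7. Stx1a was also the 1 gene of 10 with an unadjusted p under 0.05, which 15.2% of all tested genes had.

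**Figure D3:**
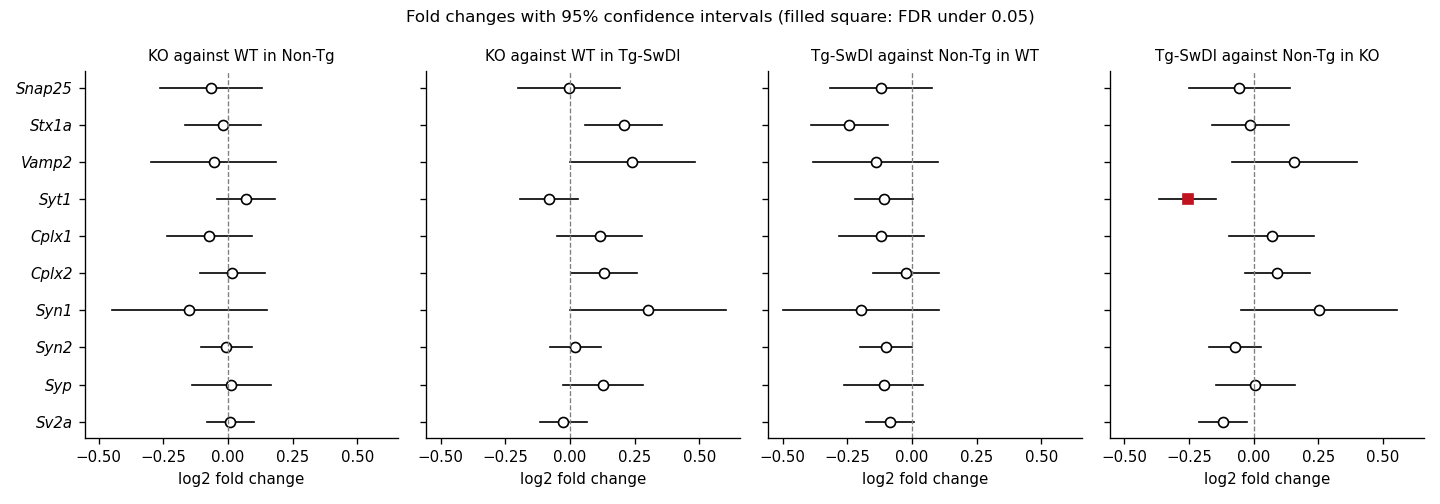
Log2 fold changes of the 10 genes (points) with 95% confidence intervals (lines) in the 4 comparisons of groups, 5 mice against 5 in each, from edgeR. The filled square is Syt1 in Tg-SwDI against Non-Tg KO mice (-0.26, 95% CI -0.37 to -0.14), the 1 value called at a false discovery rate (FDR) of 0.05. In WT mice all 10 points for the transgene lie left of 0.

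The effect of miR-34a loss was compared within each transgene state, which asks whether these transcripts, 6 of them with a seed match, differ when the microRNA is absent. In Non-Tg mice none of the 10 genes was called and none had an unadjusted p under 0.05. DESeq2 and edgeR's exactTest also called 0 of the 10. Over all tested genes 0% were called in this comparison, with 1302 of them (8.08%) at an unadjusted p under 0.05. Log2 fold changes ran from -0.15 for Syn1 to 0.07 for Syt1.

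The 95% CI gives the sizes of difference that remain possible, under a model with no term for choroid plexus RNA. All 15 choroid plexus markers lay below 0 in this comparison (median log2 fold change -3.04), with none called. For Syt1, with 4 matches, the mean was 1804 ± 97.1 CPM in WT and 1894 ± 82.4 CPM in KO Non-Tg mice (SD, n = 5 each), and the 95% CI of the log2 fold change ran from -0.04 to 0.18. For Vamp2, with 3 matches, it ran from -0.30 to 0.19, for Cplx2 from -0.11 to 0.14 and for Syn2 from -0.11 to 0.09. With the choroid plexus markers as a covariate the log2 fold changes were 0.01 for Syt1, -0.04 for Vamp2, 0.001 for Cplx2 and -0.04 for Syn2. Without that covariate, the 6 genes with a match had log2 fold changes from -0.07 to 0.07, with a median of -0.03. The 4 genes without one had values from -0.15 to 0.01, with a median of -0.01.

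In Tg-SwDI mice none of the 10 genes was called either, where 1.99% of all tested genes were called in 1 direction or the other. DESeq2 and the exactTest called 0 of the 10, and 2 of them, Stx1a and Cplx2, had an unadjusted p under 0.05, which 18.9% of all tested genes had. The median log2 fold change of the 10 genes was 0.12 and that over all tested genes 0.00, and 7 of the 10 lay above 0. For the 6 genes with a seed match values ran from -0.08 to 0.24 with a median of 0.07, and for the 4 without one from -0.03 to 0.30 with a median of 0.17. Without KO Tg-SwDI replicate 8 the median of the 10 genes was 0.02, with 6 above 0, and the medians with and without a match were 0.00 and 0.06.

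Stx1a was the gene with the lowest p in Tg-SwDI mice. The KO mice stood at 98.1, 76.7, 91.6, 103 and 98.5 CPM, against 78.7 to 84.6 CPM in the WT mice given above. In 4 of the 5 KO mice it was above every WT Tg-SwDI mouse, and replicate 2 lay below them all. The log2 fold change was 0.21 (SE 0.07, 95% CI 0.06 to 0.36) with an adjusted p of 0.119 in edgeR. Without KO Tg-SwDI replicate 2 it was 0.28 with an adjusted p of 0.0211 in edgeR. Over the 32 alternative settings in edgeR or DESeq2 the adjusted p ran from 0.0211 to 0.542, with a call in 2. Replicate 2 was also the mouse of its group with low Ttr. Stx1a thus had its lowest mean in WT Tg-SwDI mice, at 81.1 ± 2.20 CPM, against 95.8 ± 10.8 CPM in WT Non-Tg mice, 94.5 ± 5.50 CPM in those of the KO without transgene and 93.6 ± 10.3 CPM in KO Tg-SwDI mice (SD, n = 5 each).

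Syn1 and Vamp2 had the largest log2 fold changes between KO and WT in Tg-SwDI mice, and both rested on a single mouse. Syn1 stood at 561, 609.7, 699, 689 and 719 CPM in WT Tg-SwDI mice. It stood at 676, 636, 682, 791 and 1254 CPM in KO Tg-SwDI mice, the highest being replicate 8. The log2 fold change of Syn1 was 0.30 (SE 0.14, adjusted p = 0.265 in edgeR), and without replicate 8 it was 0.09. Vamp2 stood at 947, 1006, 1072, 1103 and 1143 CPM in WT and at 1098, 1014, 1027, 1274 and 1820 CPM in KO Tg-SwDI mice, again with replicate 8 highest. Its log2 fold change was 0.24 (SE 0.12, adjusted p = 0.264 in edgeR), and without replicate 8 it was 0.07.

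No gene of the 10 was called for the interaction of transgene and miR-34a, the difference between the KO effect in Tg-SwDI and that in Non-Tg mice, for which 0.608% of all tested genes were called. Of the 10, 2 had an unadjusted p under 0.05, which 17.5% of all tested genes had. Syn1 had an interaction of 0.45 on the log2 scale (95% CI 0.02 to 0.88, adjusted p = 0.262 in edgeR) and 0.24 without KO Tg-SwDI replicate 8. Stx1a had 0.23 (95% CI 0.02 to 0.44, adjusted p = 0.248 in edgeR), with its Tg-SwDI effect below 0 in WT mice and near 0 in KO mice. Over 30 alternative settings the Stx1a interaction ran from 0.07 to 0.30. It was lowest with trends on GC content and gene length removed, where the Tg-SwDI effect was -0.25 in WT and -0.18 in KO mice. DESeq2 called 0 of the 10 for this term.

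The spread within groups differed between the genes, and in KO Tg-SwDI mice much of it came with replicate 8. In KO Tg-SwDI mice the coefficient of variation was 31.7% for Syn1, 27.0% for Vamp2, 17.7% for Cplx1, 17.2% for Snap25, 17% for Syp and 11.5% for Cplx2. Over the other 4 KO Tg-SwDI mice it was 9.52%, 10.9%, 8.99%, 11.8%, 9.03% and 4.55% in the same order. The same 6 genes varied by 1.91% to 6.90% in KO Non-Tg mice and by 1.24% to 12.6% in the WT groups. Replicate 8 was the highest of all 20 mice for Syp, Vamp2, Syn1, Cplx1 and Cplx2. Against the mean of the other 4 KO Tg-SwDI mice it had 1.80 times the Syn1 level, 1.65 times that of Vamp2, 1.39 times that of Cplx1, 1.37 times that of Syp, 1.34 times that of Snap25 and 1.26 times that of Cplx2. Syn2, Stx1a and Syt1 were at 1.09, 1.07 and 1.05 times, and Sv2a, at 0.946 times, was at its lowest of all 20 mice.

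The 10 genes were thus not all high in this mouse. Among all tested genes the log2 difference of replicate 8 from its group was at the percentile 98.1 for Syn1 and 96.8 for Vamp2, at 90.7 for Syp and 91.5 for Cplx1, and at 62.0 for Syt1 and 42.8 for Sv2a. Its mitochondrial share was the highest of all mice and its TMM factor, 0.901, the lowest (0.981 to 1.03 in the others). The 20% of genes with the highest GC content had a median log2 difference of 0.04 in this mouse and the 20% with the lowest -0.08. The GC content of the longest transcript was 57.9% for Syn1 and 53.2% for Vamp2, but also 57.9% for Stx1a and 54.2% for Sv2a, which were at 1.07 and 0.946 times. The part of mitochondrial share and GC content in these values was not tested.

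**Figure D4:**
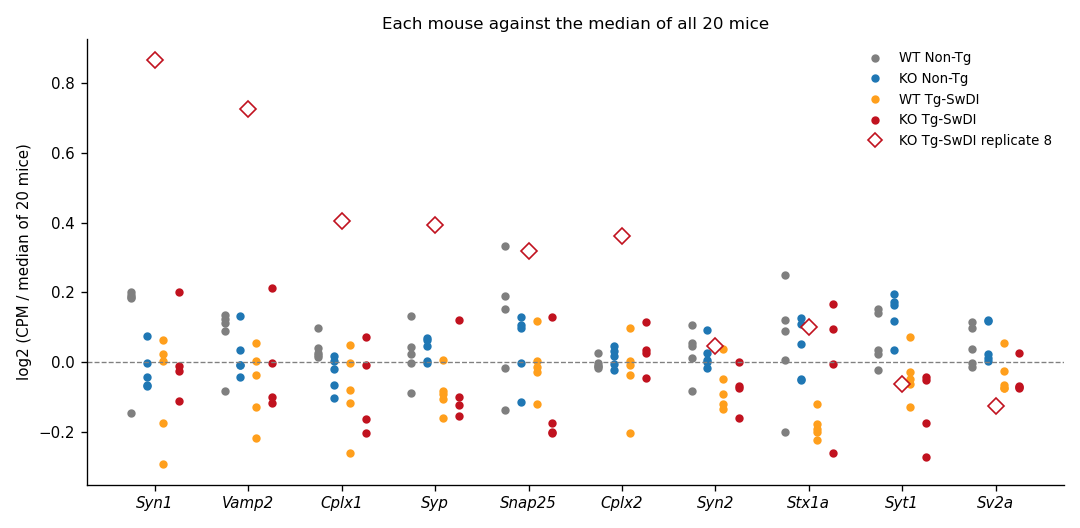
Log2 ratio of each mouse to the median of all 20 mice for the 10 genes, ordered by the difference of KO Tg-SwDI replicate 8 (open diamonds) from the other 4 mice of its group. Filled points are the other 19 mice, coloured by group. The diamond stands above every other mouse for Syn1, Vamp2, Cplx1, Syp and Cplx2, among the other mice for Snap25, Syn2, Stx1a and Syt1, and lowest for Sv2a.

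The genes whose levels over the 20 mice were most like the mean of the 10 were Parp6 (Pearson r = 0.962), Klc2 (0.940), Pacsin1 (0.936), Rab3a (0.936) and Rab6b (0.932). Rab3a is a GTPase of the synaptic vesicle, Pacsin1 acts in vesicle endocytosis, Klc2 is a light chain of the kinesin motor, Rab6b is a neuronal Rab GTPase of Golgi traffic and Parp6 is an ADP-ribosyltransferase. Without KO Tg-SwDI replicate 8 the same r values were 0.933, 0.896, 0.885, 0.930 and 0.888. These genes were chosen for their likeness and the points share libraries, so the values are a description.

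The wider synaptic machinery was read from 6 lists with 100 genes, all of which were tested. In KO mice 29 of the 100 were called lower with the transgene and 0 were called higher, where 8.31% of all tested genes were called lower. The fusion machinery had 7 of 20 lower, the other synaptotagmins 5 of 13, vesicle proteins and transporters 7 of 19, active zone 5 of 16, vesicle endocytosis 2 of 15 and postsynaptic genes 3 of 17. The median log2 fold change over the 100 genes was -0.09, and 75 of them lay below 0. The 10 vesicle release genes had 1 called and a median of 0.00 in the same comparison. Without KO Tg-SwDI replicate 8 the medians were -0.12 for the 100 genes, with 90 below 0, and -0.07 for the 10 genes, with 8 below 0.

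The largest falls among called genes without overlap between groups were in Cadps2, a priming factor for dense-core vesicles, Rab3c, a vesicle GTPase, and Homer1, a postsynaptic scaffold. Cadps2 fell from 93.6 ± 6.13 to 67.8 ± 6.45 CPM (log2 fold change -0.47, SE 0.06, adjusted p = 2.225e-06 in edgeR). Rab3c fell from 549 ± 25.3 to 429 ± 45.5 CPM and Homer1 from 104 ± 10.2 to 81.4 ± 10.7 CPM (SD, n = 5 each), with log2 fold changes of -0.35 for both. With the choroid plexus markers as a covariate, 3 of the 100 genes were called lower in place of 29, and leaving out 1 KO Non-Tg mouse brought the count to 14 (replicate 4) or 17 (replicate 8). Calls over all tested genes fell too, from 1338 lower to 157 with that covariate. Without KO Non-Tg replicate 4 they were 896, and without replicate 8 they were 862. Choroid plexus RNA was low in all 5 KO Non-Tg mice and high in 4 of the 5 KO Tg-SwDI mice.

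In WT mice 3 of the 100 genes were called lower with the transgene and 1 higher, against 0.466% and 3.94% of all tested genes. Of the 100 log2 fold changes 79 lay below 0, with a median of -0.08. Cadps2 fell from 90.9 ± 5.93 to 77.7 ± 3.25 CPM (log2 fold change -0.23, SE 0.06, adjusted p = 0.0262 in edgeR). Slc32a1, the vesicular transporter for GABA, fell from 96.4 ± 1.92 to 85.8 ± 4.73 CPM (adjusted p = 0.0435 in edgeR). Picalm, an adaptor of clathrin-mediated endocytosis, rose from 179 ± 4.45 to 200.2 ± 5.0 CPM (SD, n = 5 each, adjusted p = 0.0259 in edgeR). The 3 lower calls became 0 without WT Non-Tg replicate 3 or 6 or WT Tg-SwDI replicate 5, and 7 without KO Tg-SwDI replicate 8. Between KO and WT mice, in either transgene state, and for the interaction, 0 of the 100 genes were called in edgeR, with 21, 9 and 17 at an unadjusted p under 0.05 for Tg-SwDI mice, Non-Tg mice and the interaction, against 18.9%, 8.08% and 17.5% of all tested genes.

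**Figure D5:**
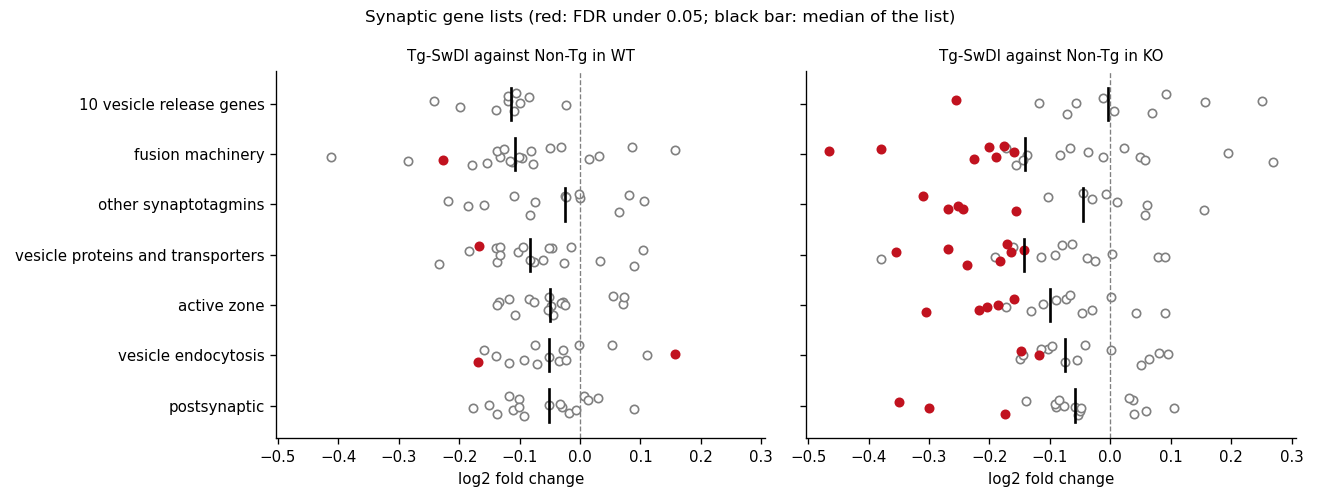
Log2 fold changes of Tg-SwDI against Non-Tg mice in WT (left) and KO (right) for the 10 vesicle release genes and 6 further synaptic lists, with 1 point per gene, red where called at an FDR of 0.05, and the median of each list as a black bar. In KO mice 29 of the 100 genes of the 6 lists are red and all of these lie left of 0, against 1 of the 10 vesicle release genes, Syt1.

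The seed matches and the transgene effect on Syt1 concern the same gene in different comparisons. Syt1 held the most matches of the 10 and was called between Tg-SwDI and Non-Tg mice that both lack miR-34a. Between KO and WT mice its log2 fold change was 0.07 in Non-Tg and -0.08 in Tg-SwDI mice, with 95% CI of -0.04 to 0.18 and -0.19 to 0.03. With the choroid plexus markers as a covariate these fold changes were 0.01 and -0.08.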

How the data were processed

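Left hippocampi of 20 female mice were sequenced by the authors as stranded mRNA libraries (DNBSEQ), aligned to mm10 with STAR and counted on ENSEMBL genes with FeatureCounts. The authors deposited raw read counts without normalization, and strand setting, multi-mapping and versions are not given in the sources used here. Groups came from the labels. Counts were fitted in edgeR 4.0.16 (R 4.3.3, limma 3.58.1) by the quasi-likelihood test with robust dispersions, TMM factors and filterByExpr (minimum count 10, minimum total 15), as 1 model of the 4 group means over 20 mice (16 residual degrees of freedom). A gene was called at a Benjamini-Hochberg FDR under 0.05 over 16107 genes. SE and 95% CI came from the F statistic. DESeq2 1.42.0, exactTest, other filters and factors, the compared mice alone, a replicate block, marker scores as covariates, removal of GC and length trends (splines with 4 degrees of freedom) and each mouse left out were alternatives, and leaving out mitochondrial genes and the reading by Ttr level (1000 CPM) were added after seeing the data.

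Symbols, positions and 3'UTRs came from GENCODE M21 (mm10, 99.5% of identifiers matched) in Python 3.11.15. The members and lists were chosen with earlier results of these data known. Genes named were the 10 members, per comparison of groups the 3 largest changes per direction among called list genes without overlap, and the 5 genes most correlated with the members' mean log2 CPM (prior count 2). Each mouse was 1 replicate. No set test was run. Scripts were tested on simulated data.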

Additional observations from a re-analysis of the deposited data

Results flagged for a closer look

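In 40 combinations of gene and group, 4 had 1 mouse far from the other 4, with a gap to the nearest mouse above 0.71 of the group's range (Dixon's 95% value for 5 mice). Chance alone gives about 1 in 20. Syn1 was 1254 CPM in KO Tg-SwDI replicate 8, where the other 4 mice ran from 636 to 791 CPM. Syn1 was also low in WT Non-Tg replicate 7, at 621 CPM against 781 to 791 CPM in the other 4, and Vamp2 was low in the same mouse, at 1038 CPM against 1170 to 1209 CPM. Cplx1 was 650.3 CPM in WT Non-Tg replicate 6, against 614 to 624 CPM in the other 4, a small difference in a group that varied little.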

How the results depend on the processing

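The 50 log2 fold changes (10 genes, 5 comparisons) were recomputed under 32 alternatives, 20 of them without 1 mouse, giving 1580 values, of which 1563 kept their side of the threshold, 16 gained a call and 1 lost it. No called value changed sign, and 54 values that were not called either way did. The number of the 10 genes called for the transgene in KO mice, 1, became 2 with library size alone, 2 with GC and length trends removed, 2 in DESeq2 (Syt1 and Sv2a each time), 4 with the pan-neuronal score as a covariate (Syt1 lower, and Vamp2, Syn1 and Cplx1 higher) and 0 with the choroid plexus score, and ran from 1 to 2 without 1 mouse (2 without KO Tg-SwDI replicate 5). Over all tested genes 2013 were called higher and 1338 lower for the transgene in KO mice. These became 1675 and 1792 with library size alone, and 1487 and 3175 with GC and length trends removed. They became 2049 and 1559 in DESeq2, 2045 and 1634 with the pan-neuronal score, and 1065 and 157 with the choroid plexus score. Without KO Tg-SwDI replicate 5 they were 1953 and 1028. Syt1 had adjusted p from 1.391e-05 to 0.0525 over all alternatives. For the transgene in WT mice the number, 0, became 1 (Stx1a, lower) with no filter, in the compared mice alone, in the exactTest and in DESeq2, and ran from 0 to 1 without 1 mouse (1 without WT Non-Tg replicate 7 or KO Tg-SwDI replicate 2). Over all tested genes 75 were called lower there. This became 55 with no filter, 193 in the compared mice alone, 82 in the exactTest and 158 in DESeq2. Without WT Non-Tg replicate 7 it was 148, and without KO Tg-SwDI replicate 2 it was 66. For KO against WT in Tg-SwDI mice the number of the 10 genes called became 1 (Stx1a, higher) with the pan-neuronal score. It ran from 0 to 1 without 1 mouse (1 without KO Tg-SwDI replicate 2). Over all tested genes 239 were called higher there, which became 570 with the pan-neuronal score and 446 without KO Tg-SwDI replicate 2. The number of the 10 genes called remained 0 under every alternative for KO against WT in Non-Tg mice and for the interaction.

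The 29 of 100 list genes called lower with the transgene in KO mice became 19 with no filter, 19 in the compared mice alone and 3 with the choroid plexus score, and ran from 14 (without KO Non-Tg replicate 4) to 34 (without KO Tg-SwDI replicate 8). Over all tested genes 1338 were called lower in KO mice. This became 929 with no filter, 780 in the compared mice alone and 157 with the choroid plexus score. It was 896 without KO Non-Tg replicate 4 and 1156 without KO Tg-SwDI replicate 8. The 3 list genes called lower in WT mice became 9 in the compared mice alone, where lower calls over all genes went from 75 to 193. The cause was not tested. Deviations from the group mean were correlated between mice with the same number in different groups at -0.404 to 0.154 (16 pairs, median -0.04). With different numbers the correlations were -0.371 to 0.504 (134 pairs, median 0.01). What the numbers stand for is not known from the labels and was not tested. With the replicate number as a block 1 of the 10 genes, Stx1a, was called for the transgene in WT mice in place of 0, Syt1 kept its call in KO mice and 20 of the 100 list genes were called lower in KO mice. Over all tested genes 953 were then called lower in KO mice in place of 1338, and 75 in WT mice as before. For KO against WT in Tg-SwDI mice 8 were then called higher and 0 lower, in place of 239 and 81.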
